A study of Danio rerio with 12 samples.

Results

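The genes described here code for 8 collagen chains and 1 matrilin of the extracellular matrix of zebrafish (Danio rerio) embryos. They are all rows of the deposited expression table whose Ensembl gene identifier carries the symbol COL9A2, col9a1b, COL12A1, COL14A1, col16a1, COL4A4, col4a3, col7a1 or MATN4. Each symbol stood on 1 row, so the set held 9 of the 5134 rows of the table, and no filter on low values was applied. By role, 5 are chains of fibril-associated collagens, 3 belong to basement membranes, and MATN4 is a matrilin. Embryos of the transgenic line rx3:GFP had been injected as 1 cell with a morpholino, an antisense oligonucleotide that blocks translation or splicing of its target RNA, and were kept at 25 °C up to the stage of 18 somites, which the labels also give as 18 hours after fertilisation. The sema6A morphants had received a morpholino against Semaphorin6A, a transmembrane semaphorin, and the plexinA2 morphants one against PlexinA2, a semaphorin receptor. The control embryos, of the same line and stage, are called wild type in the labels, and no injection is named for them. Their sample titles read UIC, which is not spelled out. In comparisons with controls, an effect of injection or of a morpholino as such cannot be told apart from loss of its target. Between the morphants, an effect of either morpholino beyond its target cannot be told apart from loss of that target either. Total RNA of each group was read on 4 one-colour arrays, which the labels call biological replicates. The number of embryos behind each array is not stated in the labels, and nothing says that replicates came from separate clutches, so p values measure the spread between these samples.

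Fibril-associated collagens do not form fibrils of their own but sit on the surface of fibrils made by other collagens. Type IX collagen, a trimer of 3 different chains, coats the type II fibrils of cartilage and notochord sheath, and types XII and XIV lie on the type I fibrils of dense connective tissue. Type IV collagen forms the sheet-like network of basement membranes, type VII forms the anchoring fibrils that tie the epidermal basement membrane to the tissue beneath it, and matrilins are adaptor proteins that link matrix fibrils to one another. In whole embryos, fewer cells of a type and less RNA per cell cannot be told apart.

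The arrays differed in how well they matched the rest, and these facts touch every value below. Averaged over its pairs with all other arrays, the rank correlation was lowest for sema6A replicate 1 (0.876) and control replicate 2 (0.835), and 0.907 to 0.932 for the remaining 10. For the 9 genes another array stood out: control replicate 4 was the highest of the 4 controls in 7 of 9, where it was the highest control in 28.0 percent of all rows. Sema6A replicate 1 was the lowest of its group in 7 of 9 genes, and control replicate 3 the lowest of its group in 7 of 9, against 39.0 and 18.7 percent of all rows. The spread within a group therefore differed strongly. The median standard deviation (SD) of the 9 genes was 0.62 in sema6A morphants, 0.23 in plexinA2 morphants and 0.92 in controls on the log2 scale, against medians over all rows of 0.42, 0.30 and 0.54. The rows of the 2 targeted genes were not analysed here.

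The 3 largest differences between plexinA2 morphants and controls lay in fibril-associated collagens, and COL12A1 alone passed the test. COL12A1 (ENSDARG00000019601), for a chain of type XII collagen, had log2 intensities of 10.97, 10.99, 11.73 and 11.17 in plexinA2 morphants, against 9.13, 9.25, 9.19 and 10.95 in controls. In the gene names used, this symbol stood for 2 Ensembl identifiers, and 1 of them had a row. Every plexinA2 array lay above every control, but control replicate 4 was less than 0.1 below the lowest of them while the other 3 controls lay close together far beneath. COL12A1 rose by 1.58 ± 0.38 log2 units, 3.00-fold (standard error SE of the fit, n = 4 per group, limma adjusted p = 0.0244). The adjusted p was above 0.05 in 6 of the 12 fits that left out 1 array, namely those without plexinA2 replicate 1, 2, 3 or 4 or control replicate 1 or 3 (highest 0.127). It was 0.000767, with a difference of 2.03, without control replicate 4.

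**Figure D1:**
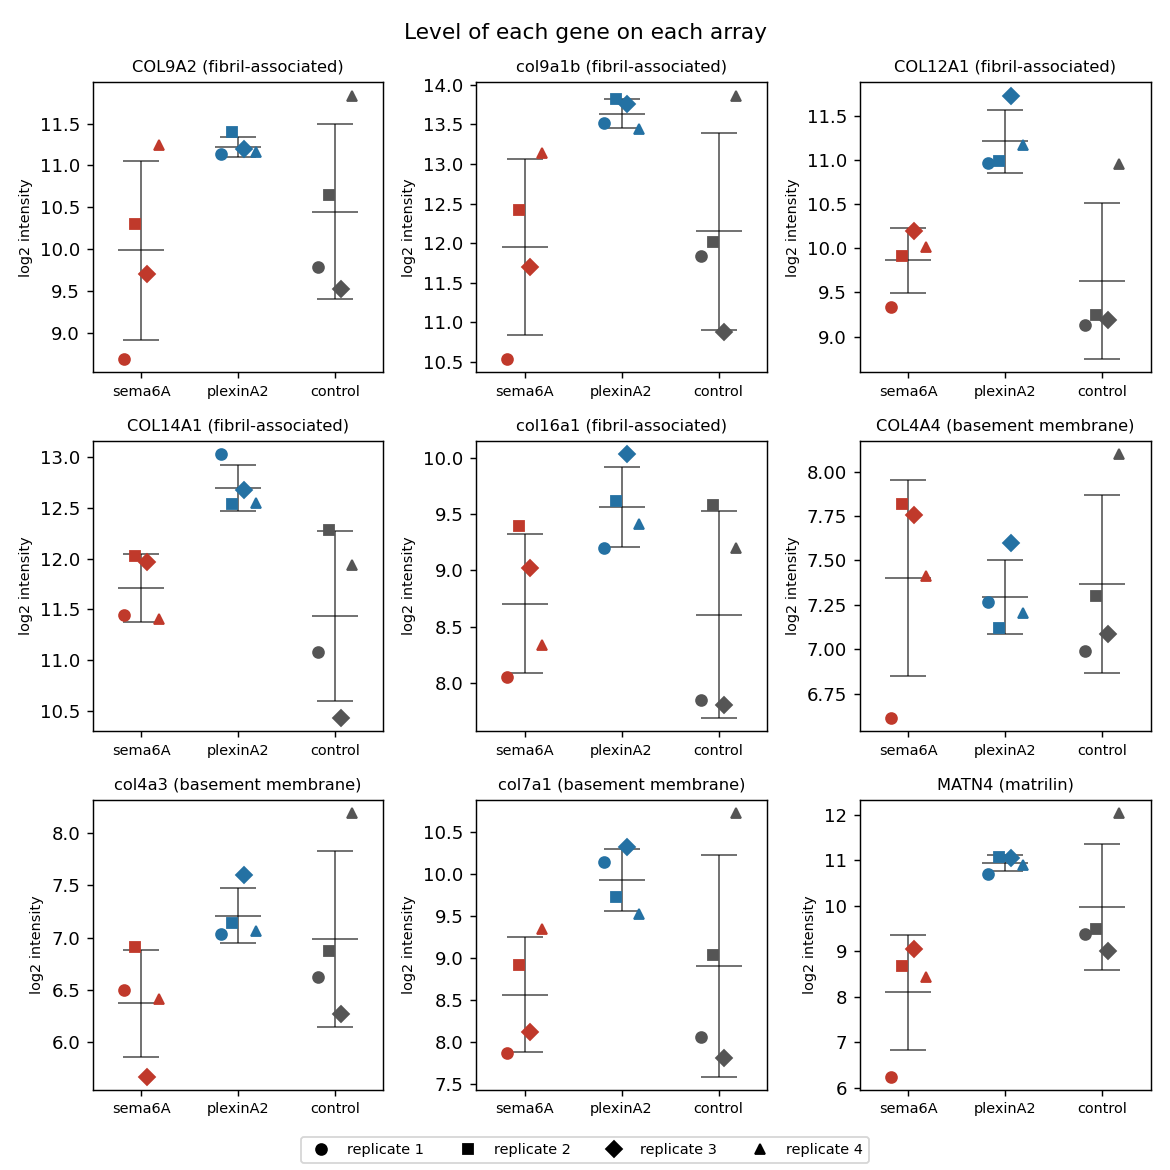
Log2 intensity (vertical axes) of the 9 genes on each of the 12 arrays, by group, with each replicate number as a marker shape and bars for the group mean and SD (n = 4). The plexinA2 arrays lie close together in most panels, and control replicate 4 is the highest of the 12 arrays in 6 panels, MATN4 among them at 12.03.

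COL14A1 (ENSDARG00000005762), for a chain of type XIV collagen, had log2 intensities of 13.03, 12.54, 12.68 and 12.55 in plexinA2 morphants, against 11.08, 12.28, 10.43 and 11.94 in controls. The groups did not overlap, with control replicate 2 the closest to the plexinA2 arrays. The difference was 1.27 ± 0.36 and missed the threshold (adjusted p = 0.0671), although it passed without control replicate 2 (0.0112) or without control replicate 4 (0.0338). COL12A1 and COL14A1 were the 2 of 9 genes with all plexinA2 arrays above all controls, a pattern found in 7.27 percent of all rows.

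The type IX chains of the set had similar profiles. The third chain, col9a3, lay outside the set and differed by 0.31 ± 0.50 in plexinA2 morphants. The gene col9a1b (ENSDARG00000031483), for an alpha-1 chain, had log2 intensities of 13.51, 13.82, 13.76 and 13.44 in plexinA2 morphants, against 11.84, 12.01, 10.88 and 13.86 in controls. Here control replicate 4 was higher than every plexinA2 array and the other 3 controls were all lower. The difference was 1.48 ± 0.54 (adjusted p = 0.166), and without control replicate 4 it was 2.06 and passed (adjusted p = 0.0177). COL9A2 (ENSDARG00000024492), for the alpha-2 chain, had 11.14, 11.40, 11.20 and 11.16 in plexinA2 morphants, against 9.79, 10.65, 9.53 and 11.84 in controls, again with control replicate 4 on top. Its difference was 0.77 ± 0.49 (adjusted p = 0.442), and it ran from 0.47 without control replicate 3 to 1.24 without control replicate 4 (adjusted p = 0.110), with none of the 12 fits passed.

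The gene col16a1 (ENSDARG00000009194), for the chain of type XVI collagen, had log2 intensities of 9.20, 9.62, 10.03 and 9.42 in plexinA2 morphants, against 7.84, 9.59, 7.80 and 9.20 in controls. Its controls fell apart into 2 low and 2 higher arrays. Of the higher ones, control replicate 2 lay within the plexinA2 range and control replicate 4 just below it. The difference was 0.96 ± 0.41 (adjusted p = 0.240).

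The type IV collagen genes of the basement membrane had small mean differences between plexinA2 morphants and controls. COL4A4 (ENSDARG00000002831), a type IV collagen chain that in mammals joins the alpha-3 and alpha-5 chains in the kidney's filtration barrier, had log2 intensities of 7.27, 7.12, 7.60 and 7.20 in plexinA2 morphants, against 6.99, 7.30, 7.09 and 8.10 in controls. The groups overlapped throughout, and the difference was −0.07 with a 95% confidence interval of −0.76 to 0.61 (adjusted p = 0.931). The gene col4a3 (ENSDARG00000003395), for the partner alpha-3 chain, had 7.04, 7.14, 7.60 and 7.07 in plexinA2 morphants, against 6.62, 6.87, 6.26 and 8.19 in controls. Control replicate 4 lay above every plexinA2 array, and the other controls lay below all of them. The difference was 0.22 (interval −0.57 to 1.01, adjusted p = 0.801). It ran from −0.018 to 0.62 over the 12 fits without 1 array, with none passed. Both rows were in the dimmest 25 percent of the table. Over the 12 arrays COL4A4 spanned 1.48 and col4a3 2.52 log2 units, against a median of 1.74 over all rows.

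The third basement membrane gene had a larger difference. Log2 intensities of col7a1 (ENSDARG00000021720), the chain of the anchoring fibril collagen, were 10.15, 9.73, 10.32 and 9.52 in plexinA2 morphants, against 8.06, 9.04, 7.82 and 10.73 in controls. Of the 4 controls, 3 lay below all plexinA2 arrays and control replicate 4 lay above all of them. The difference was 1.02 ± 0.50 (adjusted p = 0.305), and without control replicate 4 it was 1.63 (adjusted p = 0.0234).

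MATN4 (ENSDARG00000015947), a matrilin, had log2 intensities of 10.69, 11.07, 11.05 and 10.90 in plexinA2 morphants, against 9.37, 9.49, 9.01 and 12.03 in controls. As with col7a1, 3 controls were lower than every plexinA2 array and control replicate 4 was higher. The difference was 0.95 ± 0.59 (adjusted p = 0.426). Leaving out control replicate 4 moved it to 1.64, still short of the threshold (adjusted p = 0.0551).

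The count for plexinA2 morphants against controls was thus 1 of 9 genes higher and 0 lower, while 2.86 percent of all rows passed, 2.61 percent as higher and 0.253 percent as lower. At an unadjusted p under 0.05, 4 of the 9 passed, where 17.2 percent of all rows did. The median difference of the 9 was 0.96, against 0.04 over all rows. It was 1.27 for the 5 fibril-associated genes and 0.22 for the 3 basement membrane genes. The number of the 9 that passed was 0 to 4 over the fits without 1 array, with 4 reached without control replicate 4 (COL12A1, col9a1b, COL14A1 and col7a1), 2 without control replicate 2, and 0 without control replicate 1 or 3 or any plexinA2 array. The count over all rows moved as well, from 147 with all arrays to 326 without control replicate 4 and 172 without control replicate 2. It was 79 to 96 in the fits with 0 of the 9.

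**Figure D2:**
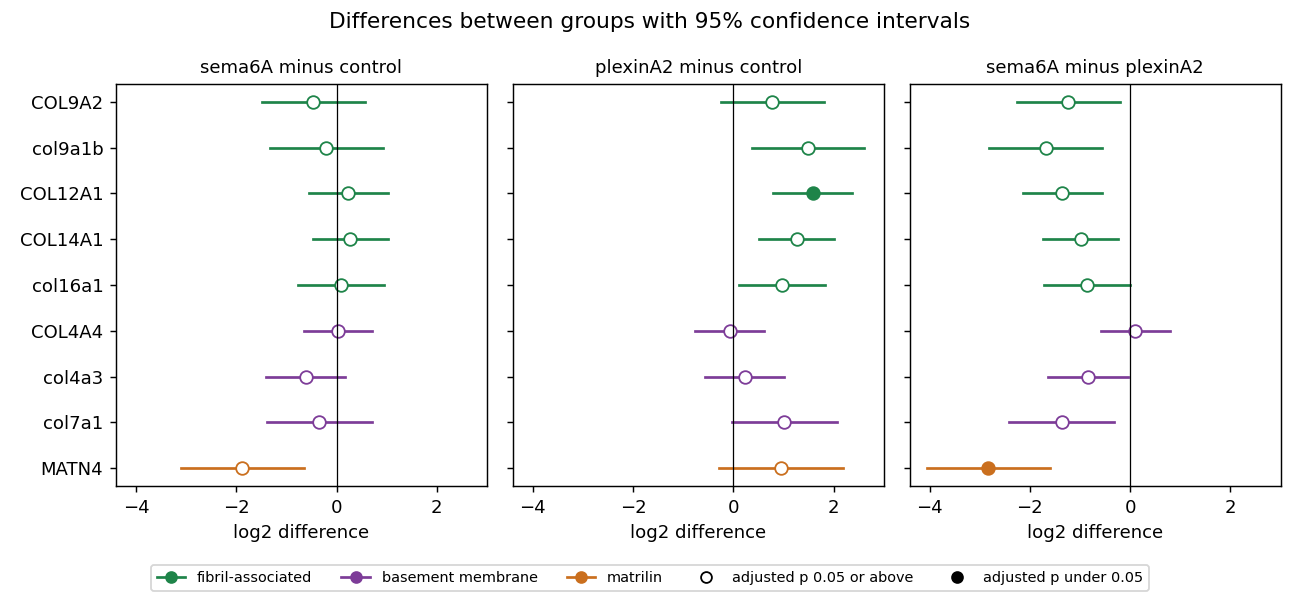
Log2 differences (horizontal axes) of the 9 genes in 3 comparisons, with 95% confidence intervals of the limma fit and colours for the gene class. Filled points, COL12A1 in plexinA2 morphants minus controls and MATN4 in sema6A minus plexinA2 morphants, passed the test at an adjusted p under 0.05.

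Sema6A morphants showed no called change in these genes against controls, and the mean differences of the fibril-associated genes ran from −0.46 to 0.28. COL12A1 had log2 intensities of 9.34, 9.91, 10.19 and 10.02 in sema6A morphants, against 9.13, 9.25, 9.19 and 10.95 in controls. All sema6A arrays lay above control replicates 1, 2 and 3 and below control replicate 4. The mean difference of COL12A1 was 0.23 (95% interval −0.56 to 1.02). It ran from 0.069 to 0.68 over the 12 fits without 1 array, with none passed. COL14A1 differed by 0.28 (−0.47 to 1.03) and col16a1 by 0.10 (−0.76 to 0.95). The type IX chains of the set had differences of −0.20 (−1.32 to 0.92) for col9a1b and −0.46 (−1.49 to 0.56) for COL9A2. The third chain, col9a3, outside the set, differed by −1.41 ± 0.50 without passing.

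Among the basement membrane genes the differences between sema6A morphants and controls were 0.03 for COL4A4 (−0.65 to 0.72), −0.62 for col4a3 (−1.41 to 0.17) and −0.35 for col7a1 (−1.39 to 0.70). For col4a3 the sema6A arrays ran from 5.67 to 6.91 and the controls from 6.26 to 8.19, with control replicate 4 more than 1 above the next control.

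MATN4 was the furthest from its controls in sema6A morphants. Its log2 intensities were 6.25, 8.68, 9.04 and 8.43 in sema6A morphants, against 9.37, 9.49, 9.01 and 12.03 in controls. Sema6A replicate 1 was far below the rest and control replicate 4 far above, and the groups overlapped only through sema6A replicate 3 and control replicate 3. The difference was −1.88 ± 0.59 (95% interval −3.11 to −0.65), which missed the threshold (adjusted p = 0.0792). It was −1.26 without sema6A replicate 1 (adjusted p = 0.189) and −1.19 without control replicate 4 (adjusted p = 0.171). Over the 12 arrays MATN4 spanned 5.79 log2 units, the 10th widest range of 5134 rows.

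None of the 9 genes passed in sema6A morphants under limma, and none did in any of the 12 fits without 1 array, while 3.12 percent of all rows passed (1.99 percent higher and 1.13 percent lower). At an unadjusted p under 0.05 only MATN4 passed, where 20.6 percent of all rows did. With array weights, which give arrays far from their group less influence, COL14A1 (0.92, adjusted p = 0.0138) and col16a1 (1.08, adjusted p = 0.00988) passed as higher. The weighted fit called 1407 of all 5134 rows in this comparison, however, against 160 without weights. The 9 differences had a median of −0.20, against 0.06 over all rows. For none of the 9 were the sema6A arrays wholly on one side of the controls, where 10.9 percent of all rows had such a split.

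Set directly against each other, sema6A morphants had lower mean levels than plexinA2 morphants in 8 of 9 genes, where 50.2 percent of all rows had higher ones. MATN4 fell to 6.25, 8.68, 9.04 and 8.43 in sema6A morphants, against 10.69, 11.07, 11.05 and 10.90 in plexinA2 morphants. Even the highest sema6A array was more than 1 log2 unit below the lowest plexinA2 array. The difference was −2.83 ± 0.59, or 7.12-fold lower (n = 4 per group, limma adjusted p = 0.0239). The adjusted p was above 0.05, and the call was lost, without sema6A replicate 2 (0.0503) and without plexinA2 replicate 1, 2, 3 or 4 (highest 0.0903). Without sema6A replicate 1, the array with the lowest value, the difference was −2.21 and the call stood (0.0404).

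**Figure D3:**
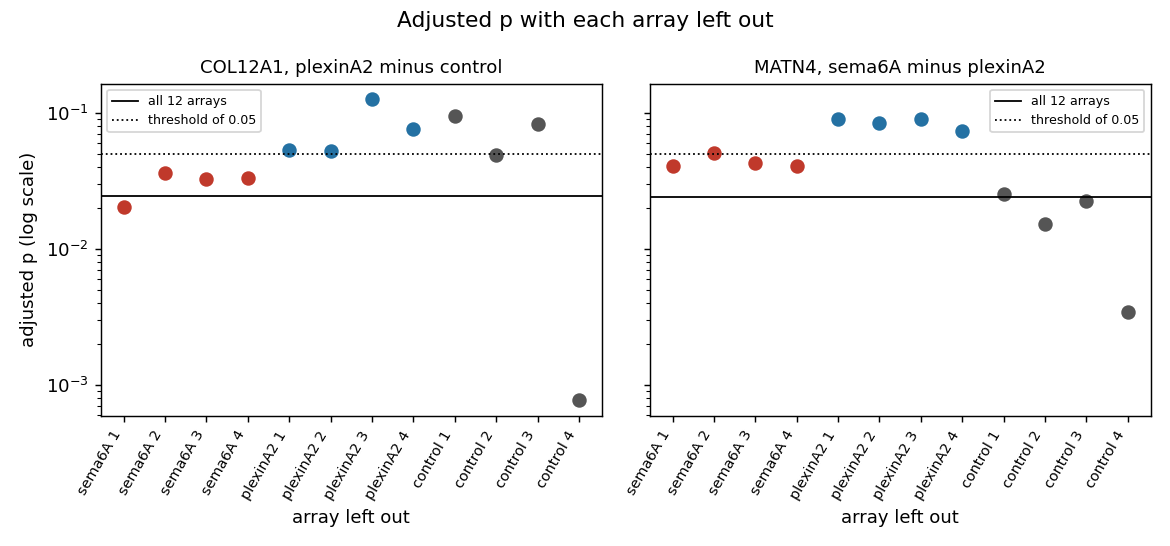
Adjusted p (log scale) of COL12A1 in plexinA2 morphants minus controls and of MATN4 in sema6A minus plexinA2 morphants, with each of the 12 arrays left out in turn. Points above the dotted line at 0.05 are fits in which the call was lost, 6 of 12 for COL12A1 and 5 of 12 for MATN4, and the lowest point of both panels is the fit without control replicate 4.

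The 5 fibril-associated genes all had lower means in sema6A than in plexinA2 morphants, and none of these differences passed. The col9a1b arrays ran from 10.54 to 13.14 in sema6A morphants and from 13.44 to 13.82 in plexinA2 morphants, a difference of −1.69 ± 0.54 (adjusted p = 0.0802). COL12A1 ran from 9.34 to 10.19 in sema6A morphants and from 10.97 to 11.73 in plexinA2 morphants, a difference of −1.35 ± 0.38 (adjusted p = 0.0609). For both genes the groups did not overlap. COL14A1 was also separated, at 11.40 to 12.02 in sema6A morphants and 12.54 to 13.03 in plexinA2 morphants (−0.99 ± 0.36, adjusted p = 0.107). COL9A2 had 8.69, 10.30, 9.71 and 11.24 in sema6A morphants and overlapped with the plexinA2 arrays only through sema6A replicate 4 (−1.24, adjusted p = 0.126). The values of col16a1 were 8.05, 9.40, 9.02 and 8.34 in sema6A morphants, which overlapped through sema6A replicate 2 (−0.87, adjusted p = 0.183).

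Of the basement membrane genes, col7a1 ran from 7.87 to 9.35 in sema6A morphants and from 9.52 to 10.32 in plexinA2 morphants (−1.37 ± 0.50, adjusted p = 0.107), and col4a3 from 5.67 to 6.91 in sema6A morphants and from 7.04 to 7.60 in plexinA2 morphants (−0.84 ± 0.38, adjusted p = 0.166). Both were separated without passing. COL4A4 was the exception in direction, at 6.61, 7.82, 7.76 and 7.41 in sema6A morphants, with arrays on both sides of the plexinA2 arrays and a difference of 0.10 (95% interval −0.58 to 0.79, adjusted p = 0.853).

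Between the morphants 0 of 9 genes passed as higher and 1 as lower, while 1.71 percent of all rows passed, 0.448 percent as higher and 1.27 percent as lower. At an unadjusted p under 0.05, 8 of the 9 passed, where 26.8 percent of all rows did. In 6 of 9 genes all sema6A arrays lay below all plexinA2 arrays, against 12.9 percent of all rows. The median of the 9 was −1.24, against 0.00 over all rows. The calls depended on which arrays gave the estimate of spread. Fitted on the 8 morphant arrays alone, without the wide control spread, 6 of 9 genes passed as lower. They were MATN4, COL12A1, col7a1, col9a1b, COL14A1 and COL9A2. In that fit, however, 743 of all 5134 rows passed in either direction, instead of 88. Among the fits without 1 array, 4 of the 9 passed without control replicate 4, 3 without control replicate 2, and 0 without sema6A replicate 2 or any plexinA2 array. Over all rows the counts in the same order were 248, 495 and 6 to 15.

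With the 8 morphant arrays set against the controls, none of the 9 genes passed, where 2.77 percent of all rows did, and none had groups that did not overlap, where 2.92 percent of all rows did. At an unadjusted p under 0.05, 2 of the 9 passed, where 16.6 percent of all rows did. They were COL12A1 (0.91 ± 0.33, adjusted p = 0.153) and COL14A1 (0.77 ± 0.31, adjusted p = 0.212). Without control replicate 4, COL12A1 passed (1.35, adjusted p = 0.00992).

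**Figure D4:**
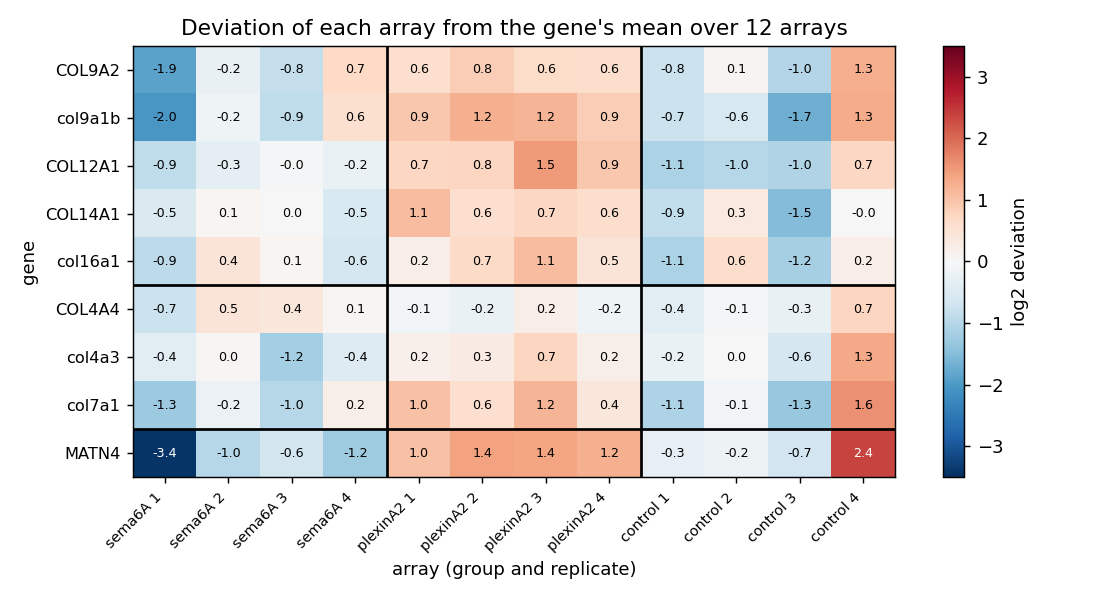
Log2 deviation of each array (columns, by group and replicate) from the gene's own mean over the 12 arrays, for the 9 genes (rows, with lines between the 3 classes). MATN4 holds both extremes, −3.42 in sema6A replicate 1 and 2.37 in control replicate 4, and COL4A4 varies least.

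Fibril-associated and basement membrane genes were compared within each array, by the mean deviation of a class from its genes' own means, as a description with no test. The 5 fibril-associated genes averaged −0.41 ± 0.57 in sema6A morphants, 0.81 ± 0.15 in plexinA2 morphants and −0.40 ± 0.89 in controls (SD, n = 4 arrays each). The 3 basement membrane genes averaged −0.34 ± 0.42, 0.36 ± 0.26 and −0.03 ± 0.88 in the same groups. The fibril-associated mean minus the basement membrane mean was −0.45, −0.14, 0.26 and 0.03 in sema6A morphants, 0.35, 0.60, 0.30 and 0.55 in plexinA2 morphants, and −0.36, −0.05, −0.56 and −0.52 in controls. All plexinA2 arrays were thus above all arrays of the other groups, the closest being plexinA2 replicate 3 (0.30) and sema6A replicate 3 (0.26). Control replicate 4, which was high in both classes, fell with the other controls. The basement membrane class is itself mixed, and COL4A4 and col4a3 were in the dimmest 25 percent of rows. The split rested on these type IV rows, since against col7a1 alone it was lost. On plexinA2 replicate 1 the fibril-associated mean (0.71) was below the deviation of col7a1 (1.01). On control replicate 1 the fibril-associated mean (−0.92) was above that of col7a1 (−1.07). The difference between plexinA2 morphants and controls was 1.02 for col7a1, 0.22 for col4a3 and −0.07 for COL4A4. In all 3 genes control replicate 4 lay above every plexinA2 array. The other controls lay below every plexinA2 array for col7a1 and col4a3, but not for COL4A4. Outside the set, col9a3 was the only other fibril-associated row and differed by 0.31 (SE 0.50) in plexinA2 morphants against controls. The 14 other basement membrane rows, most of them not collagens, had a median of 0.53. Their collagen rows COL4A1 (0.23), col4a5 (0.15) and col15a1b (−0.32) were below col9a3. An order of the classes outside the set cannot be read from a single fibril-associated row.

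**Figure D5:**
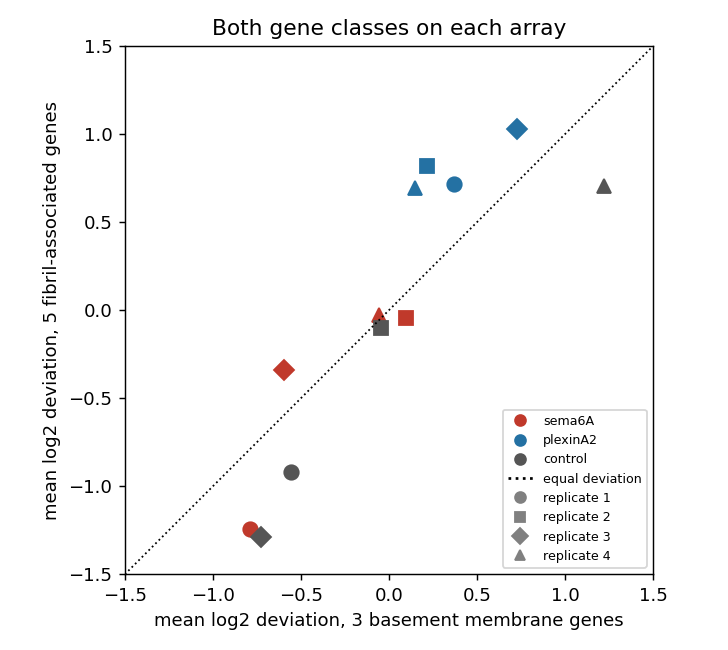
Mean log2 deviation of the 5 fibril-associated genes (vertical) against that of the 3 basement membrane genes (horizontal) on each array, with colours for groups and shapes for replicates. The 4 plexinA2 arrays lie above the dotted line of equal deviation and the 4 control arrays below it, and control replicate 4 is furthest right at 1.22.

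How closely the genes followed one another over the 12 arrays is given as a description, since group differences and shared arrays enter each coefficient. Over the 36 pairs Pearson's r ran from 0.28 to 0.96 with a median of 0.71. The highest value joined COL9A2 and col9a1b, chains of the same trimer (Spearman's rho 0.94), and it was 0.97 when each value was taken as a deviation from its group mean. The next were col7a1 with col9a1b (0.94) and col7a1 with COL9A2 (0.93). By this r over the 12 arrays COL4A4 was the least tied, with a median of 0.50 to the other 8 genes. On deviations from group means it was not the least tied. There its r ran from 0.53 with col4a3 to 0.93 with MATN4, and that of COL14A1 from 0.39 with COL12A1 to 0.82 with col16a1.

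In the RefSeq gene table of the assembly GRCz12tu, matched by symbol, col4a4 and col4a3 are direct neighbours among protein-coding genes, as are col9a2 and col16a1. The profiles of these neighbours over the arrays were not especially alike. The r was 0.37 between COL4A4 and col4a3, and 0.66 between COL9A2 and col16a1. The closest partner of col16a1 within the set was COL14A1 (0.88).

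The 2 rows with a symbol most like each gene over the 12 arrays were mostly outside the set. COL9A2 was closest to a row known only by a provisional zmp symbol and to colgalt2a, named for the enzymes that add galactose to collagen (r = 0.97 for both). The gene col9a1b was closest to MYO18A (0.97) and COL9A2 (0.96), and col7a1 to si:ch211-51a6.2 (0.96) and MYO18A (0.95). COL12A1 was closest to NAV3 and KREMEN1 (0.97 for both).

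The profile of COL14A1 was most like those of jag2a (0.94), a Notch ligand gene, and PCDH7 (0.93), a protocadherin gene. That of col16a1 was most like VEPH1 (0.94) and kcnj11 (0.93), and that of COL4A4 most like cacnb4b (0.93) and cadpsb (0.91). MATN4 was closest to KIF26A (0.98) and to PYGM (0.97), the muscle glycogen phosphorylase gene, and col4a3 to si:dkey-61l1.4 (0.90) and COL6A2 (0.89), a chain of type VI collagen.

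Other matrix genes were read from 6 lists, of which 47 rows were measured besides the 9. In sema6A morphants none rose against controls, 1 fell and 46 did not pass, while 1.99 percent of all rows were higher and 1.13 percent lower. Their median was −0.66, against 0.06 over all rows, and 19 had an unadjusted p under 0.05, where 20.6 percent of all rows did. In plexinA2 morphants none of the 47 passed under limma, where 2.86 percent of all rows did. Of the 47, 4 had an unadjusted p under 0.05, where 17.2 percent of all rows did. Their median was 0.33, against 0.04 over all rows. The gene that fell in sema6A morphants was LOXL3 (ENSDARG00000039563), a lysyl oxidase-like enzyme gene of collagen cross-linking, at 7.47, 6.96, 7.79 and 8.37 in sema6A morphants, against 8.74, 10.04, 8.85 and 9.11 in controls (−1.54 ± 0.35, adjusted p = 0.0199). Its call was lost without sema6A replicate 2 (0.0851) or 3 (0.0505) and in the fit of only those groups (0.0974).

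Between the morphants 4 of the 47 rows were lower in sema6A morphants, none was higher and 43 did not pass, while 1.27 percent of all rows were lower and 0.448 percent higher. The median of the 47 was −0.93, against 0.00 over all rows, and 36 had an unadjusted p under 0.05, where 26.8 percent of all rows did. The 4 were COL11A2 (−1.96 ± 0.47, adjusted p = 0.0435), a chain of the fibrillar type XI collagen, FREM1 (−1.46 ± 0.35, adjusted p = 0.0417), a basement membrane protein gene, LOXL3 (−1.60 ± 0.35, adjusted p = 0.0306) and 1 of 2 THBS3 rows (−1.27 ± 0.32, adjusted p = 0.0460), a thrombospondin gene. COL11A2, FREM1 and THBS3 each lost their call without any single morphant array, which is 8 of 12 fits (highest adjusted p 0.130, 0.130 and 0.136), and LOXL3 in 6, those without sema6A replicate 2 or 3 or any plexinA2 array (0.116). THBS3 also lost its call with a mean-variance trend (0.0516).

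By list, the 8 fibrillar collagen rows had a median of −0.91 in sema6A morphants and 0.38 in plexinA2 morphants, each against controls, with none passed. The third chain of type IX collagen, col9a3, was the only other fibril-associated row, at −1.41 ± 0.50 in sema6A morphants (adjusted p = 0.118) and 0.31 ± 0.50 in plexinA2 morphants (adjusted p = 0.790). The 14 other basement membrane rows had medians of −0.39 in sema6A and 0.53 in plexinA2 morphants, with none passed. Among them COL4A1 differed by −0.43 and 0.23, and col4a5 by −0.36 and 0.15.

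The 12 rows of matrilins and cartilage matrix had medians of −0.84 in sema6A and 0.28 in plexinA2 morphants, again against controls and with none passed, and MATN3, the other matrilin, differed by −0.43 and 0.32. The 10 rows of collagen biosynthesis had medians of −0.56 and 0.30, with LOXL3 the only call. The network and transmembrane collagens gave col28a2a (−2.22 ± 0.79 in sema6A morphants, adjusted p = 0.120) and COL6A2 (−0.30 ± 0.34, adjusted p = 0.670). The difference of col28a2a was −1.32 without sema6A replicate 1, and it passed in 1 of 12 fits, at −2.89 without control replicate 3 (adjusted p = 0.0422). A further 2 rows carried the symbol col7a1l, a relative of col7a1, and had 0.69 ± 0.32 and 1.00 ± 0.40 in plexinA2 morphants (adjusted p = 0.283 and 0.211).

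Few markers of the tissues that make these proteins were measured. Of 8 notochord names 3 rows were present (noto and 2 rows of SHH), of 8 sclerotome and cartilage precursor names 3 (PAX1, PAX9 and FOXC1), and of 8 muscle names TNNC2, a fast muscle troponin gene. No row of the epidermis, neural crest or hatching gland lists was measured. Summed intensity of the notochord rows was 6859 to 10728 in sema6A morphants, 7436 to 11529 in plexinA2 morphants and 4399 to 13756 in controls. The sclerotome sum was 1750 to 2509, 2253 to 3661 and 2267 to 4993 in the same order, and TNNC2 was at 978 to 6414, 7596 to 10047 and 2390 to 10333.

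The notochord and muscle rows had no call in any comparison. PAX9, a sclerotome transcription factor named here after its values were seen, fell in sema6A morphants (−1.26 ± 0.31, adjusted p = 0.0330), a call lost in 7 of the 12 fits without 1 array, namely without sema6A replicate 1 or 2, plexinA2 replicate 2, 3 or 4 or control replicate 1 or 2 (highest 0.0825). It was also lost in the fit of only those groups (0.137) and without sema6A replicate 1 and control replicate 2 together (0.0738). The other sclerotome markers, PAX1 (−0.70) and FOXC1 (−0.93), were also lower in sema6A morphants without passing. In plexinA2 morphants PAX1, PAX9 and FOXC1 were lower than in controls as well (−0.52, −0.42 and −0.53), with none passed. The 9 genes had a median of 0.96 in that comparison. Control replicate 4, the highest control for MATN4 and col7a1, had the lowest mean deviation of the controls for notochord markers (−0.61) and for sclerotome markers (0.031), and the highest for TNNC2 (0.84). Sema6A replicate 1, the lowest for MATN4, had the lowest of its group for sclerotome markers (−0.92) and TNNC2 (−2.57), but the highest for notochord markers (−0.097). The part of cell makeup or stage in the collagen and matrilin values was not tested.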

How the data were processed

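RNA of 12 arrays, 4 per group, was measured on the NimbleGen Zebrafish Gene Expression 385K array in 1 colour (Cy3), per the labels. The authors deposited intensity values on a linear scale, 1 per Ensembl gene, and RMA (background correction, normalization between arrays and summary of probes) is named without a version in the submitters' processing notes. RMA can compress differences of dim rows and hides a shift of all genes together. The number of arrays limits the precision. The genome build and the choice of the 5134 rows are not given in the sources used here. A table of gene names gave 4349 rows a symbol.

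Log2 values, with no pseudocount, of all 12 arrays entered 1 model (limma 3.58.1, lmFit and eBayes, R 4.3.3) with group as the only term, 9 residual and 9.54 prior degrees of freedom. Tests were two-sided, with Benjamini-Hochberg adjustment over all 5134 rows in each of 4 comparisons, and rows were called at an adjusted p under 0.05. The script was tested on simulated data. The labels do not say whether arrays sharing a replicate number were paired, and the main model did not pair them. Members, lists and tests were chosen with earlier results of these data known. The text names all 9 members, list genes past the test (otherwise up to 2 of smallest p per list) and, per member, the 2 rows of highest r. Alternatives were a replicate block, fits of only the groups compared, a filter on dim rows, quantile normalization, a pseudocount of 50, a mean-variance trend, array weights and leaving out each array. Leaving out the 2 arrays of lowest rank correlation was added after seeing the data.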

Additional observations from a re-analysis of the deposited data

Results flagged for a closer look

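The following 3 results of the 9 genes stood out by fixed rules. Control replicate 4 was far from the other 3 controls for COL12A1, at 10.95 where the next control was at 9.25, a gap of 0.938 of the group's range. It was also far from them for MATN4, at 12.03 where the next was at 9.49, a gap of 0.841 of the range. Both exceed Dixon's 95% critical value for 4 samples. Of 27 groups checked these were the 2 past it, and chance passes about 1 in 20. The effect on MATN4 differed between the morphants, by −2.83 for sema6A minus plexinA2 morphants (limma adjusted p = 0.0239), with all 4 sema6A arrays below all 4 plexinA2 arrays.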

How the results depend on the processing

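The filter on dim rows and the mean-variance trend kept every count within 1.5 times its main value, although THBS3 between the morphants lost its call under the trend (0.0516), and the fit with the replicate block gave 158, 130, 144 and 120 rows and 0, 1, 1 and 0 of the 9 genes called (sema6A minus control, plexinA2 minus control, sema6A minus plexinA2, and the morphants minus control, an order kept below), against 160, 147, 88 and 142 rows. Of 12 pairs sharing a number, 3 had a correlation of deviations over 0.1 (−0.242 to 0.361) and 3 matched best with their own number. These correlations cannot decide whether arrays of the same number shared a batch or clutch. Fits of only the groups compared gave 47 rows in the first and 743 in the third comparison, with 6 of the 9 genes in the third. Quantile normalization gave 158 and a pseudocount of 50 gave 136 rows in the third, and the quantile setting turned COL4A4 in sema6A morphants to −0.037. Array weights moved all counts, to 1407, 1629, 2273 and 1373 rows and 2, 7, 7 and 6 genes. They reversed COL9A2 (0.24), col9a1b (0.49) and col7a1 (0.44) in sema6A morphants, COL4A4 in plexinA2 morphants (0.11), and COL4A4 (0.34), col4a3 (0.16) and MATN4 (0.30) in the morphants minus control. Without sema6A replicate 1 and control replicate 2 together, an alternative chosen after seeing the data, 275 rows and 3 genes passed in the second, 880 rows and 2 genes in the third and 1 gene in the fourth comparison, and COL9A2 (0.034) and col9a1b (0.22) in sema6A morphants and COL4A4 in the morphants minus control (0.088) turned sign. Leaving out 1 array at a time gave 66 to 226, 79 to 326, 6 to 495 and 83 to 212 rows, and 0, 0 to 4, 0 to 4 and 0 to 1 genes. Over these fits uncalled differences changed sign in sema6A morphants for col9a1b (−0.62 to 0.37), COL4A4 (−0.11 to 0.29), col16a1 (−0.17 to 0.42), COL14A1 (−0.056 to 0.56), col7a1 (−0.71 to 0.26) and COL6A2 (−0.48 to 0.018). They did so in plexinA2 morphants for COL4A4 (−0.20 to 0.17) and col4a3 (−0.018 to 0.62), between the morphants for COL4A4 (−0.035 to 0.37), and in the morphants minus control for COL9A2 (−0.15 to 0.62), COL4A4 (−0.15 to 0.22), col4a3 (−0.44 to 0.20), col7a1 (−0.028 to 0.94) and MATN4 (−0.79 to 0.22). The calls of COL12A1 (1.41 to 2.03) and MATN4 between the morphants (−3.14 to −2.21) kept their direction in these 12 fits but not always the threshold. The causes of these changes were not tested, the smaller number of arrays among them. COL4A4 and col4a3 were in the dimmest 25 percent of rows of the table. The filter on dim rows removed them, and also COL11A2 and PAX9, so the calls of COL11A2 and PAX9 were not retested under it.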
